A study of Mus musculus with 9 samples.

Results

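S100 proteins are small calcium-binding proteins, and the 7 S100 genes described here (S100a4, S100a6, S100a8, S100a9, S100a10, S100a11 and S100a13) were taken by symbol from a table of 46517 genes. All 7 were listed. RNA had been sequenced from neutrophils sorted out of the bone marrow, blood and pancreatic tumor of C57BL/6 mice, called OT mice, in which tumor cells of 1 line had been transplanted into the pancreas. The line came from KPC mice, a genetic model of pancreatic ductal adenocarcinoma (PDAC). Neutrophils were sorted on day 27 as CD45+ cells without T, B and NK cell markers that carried Ly6G and Ly6C, and the labels give Ly6G.hi for bone marrow and Ly6G+ for blood and tumor. Each compartment had 3 libraries, each from a pool of 5 OT mice and, per the study's methods, from a separate experiment. All mice carried a tumor, so every comparison is between compartments of tumor-bearing mice.

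S100 proteins bind calcium through a pair of EF-hand loops and most of them act as dimers, which change shape when calcium rises and then bind a partner protein. S100a8 and S100a9 together form calprotectin, the most abundant protein of the neutrophil cytosol, which withholds zinc and manganese from microbes and acts as an alarm signal on Toll-like receptor 4 and RAGE once it is released. S100a6, S100a10 and S100a11 are made by many cell types and bind annexins, which attach to membranes in the presence of calcium. S100a10 differs from the rest of the family in that it no longer needs calcium, and with annexin A2 it binds plasminogen at the cell surface. S100a4 is known from migrating cells, and S100a13 from the release of growth factors that lack a signal peptide.

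Levels are log2 FPKM, reads scaled by gene length and library size, on which 1 unit is a doubling. Whole reads were recovered from these values for all 46517 genes, with between 4580807 and 7949367 reads per library. A gene entered the limma test if 3 or more libraries had it over 0 log2 FPKM. This held for 7794 genes, over which p-values were adjusted (Benjamini-Hochberg). Of the 7 S100 genes, 5 passed this filter and 2, S100a4 and S100a13, did not. The 10 neutrophil marker genes all had reads in every compartment, and their summed level in RPM (reads in every 1000000 reads of a library) was 66515 to 70400 in bone marrow, 30602 to 31458 in the blood and 13293 to 15727 in tumor. The 10 epithelial markers together took 70.8 to 85.3 RPM in bone marrow, 168 to 303 in the blood and 2787 to 5914 in tumor, where all 10 had a mean over 0 log2 FPKM. The 8 acinar markers took 711 to 3078 RPM in tumor and at most 8.49 RPM elsewhere, and the 10 fibroblast markers 1553 to 1963 RPM in tumor and at most 162 RPM elsewhere.

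Calprotectin RNA was highest in bone marrow, lower in blood and lowest in tumor. S100a8, on chromosome 3 (GRCm38, 90668978 to 90670035, plus strand), had 12.76, 12.46 and 12.69 log2 FPKM in the bone marrow libraries, 11.46, 11.48 and 11.51 in blood, and 9.99, 9.55 and 9.37 in tumor. S100a9, which lies on the minus strand of the same chromosome (90692632 to 90695721), had 10.90, 10.65 and 10.79 log2 FPKM in bone marrow, 9.69, 9.36 and 9.23 in blood, and 8.10, 7.70 and 7.31 in tumor. For both genes every bone marrow library was above every blood library, and every blood library above every tumor library. In bulk RNA scaled to library size, a smaller share of neutrophils and less RNA of these genes per neutrophil cannot be told apart.

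The promoters of 3 S100 genes are shown because S100a8 and S100a9 fell together at each step, whereas S100a11, described further on, was called lower in tumor but not between bone marrow and blood. They are RefSeq sequences (GRCm38.p6), 5′ to 3′ on the gene's strand, and run up to the transcript start, without bases that either annotation places in an exon. Capitals mark matches to the motifs named after them. For S100a8 the sequence is chr3:90668821-90668977, for S100a9 chr3:90695722-90695971 and for S100a11 chr3:93520246-93520487.
S100a8: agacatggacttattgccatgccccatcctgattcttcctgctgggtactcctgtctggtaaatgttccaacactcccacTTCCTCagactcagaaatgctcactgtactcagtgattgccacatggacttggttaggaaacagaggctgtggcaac
S100a9: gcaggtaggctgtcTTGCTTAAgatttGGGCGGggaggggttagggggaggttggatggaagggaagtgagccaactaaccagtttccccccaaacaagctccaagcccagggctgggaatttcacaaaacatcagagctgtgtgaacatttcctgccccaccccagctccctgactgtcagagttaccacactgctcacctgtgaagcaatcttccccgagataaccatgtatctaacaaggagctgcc
S100a11: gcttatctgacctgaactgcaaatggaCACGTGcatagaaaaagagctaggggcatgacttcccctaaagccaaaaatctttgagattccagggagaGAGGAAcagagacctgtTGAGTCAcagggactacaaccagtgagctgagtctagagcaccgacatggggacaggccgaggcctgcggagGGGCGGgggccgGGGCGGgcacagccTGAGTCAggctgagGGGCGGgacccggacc

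Motifs were searched on both strands over the 250 bases before the RefSeq start, in these genes and in all 32851 promoters of the table. GAGGAA, a core that PU.1 binds, was found 2 times for S100a8 and 1 time for S100a11, and in 23.3% of all promoters. For S100a8, 1 of these matches and a match to TATAAA lie in bases not printed, because GENCODE places them in an exon. TTGCNNAA, a C/EBP motif, was found 1 time for S100a9 and in 9.56% of promoters. TATAAA was found 30 bases before the start of S100a8, and in 12.4% of promoters. The AP-1 motif TGANTCA was found 2 times for S100a11, against 6.75% of promoters with any match. GGGCGG, which Sp1 binds, was found 3 times for S100a11 and 1 time for S100a9 (32.7% of promoters), and ACGTG, the core that HIF binds, was found for S100a11 on each strand of the same 6 bases (16.6% of promoters). S100a8 and S100a9 thus shared none of these 6 motifs in their windows. The windows held 50.8%, 53.6% and 60.0% G and C for S100a8, S100a9 and S100a11, beside a median of 52.4% over all promoters.

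**Figure D1:**
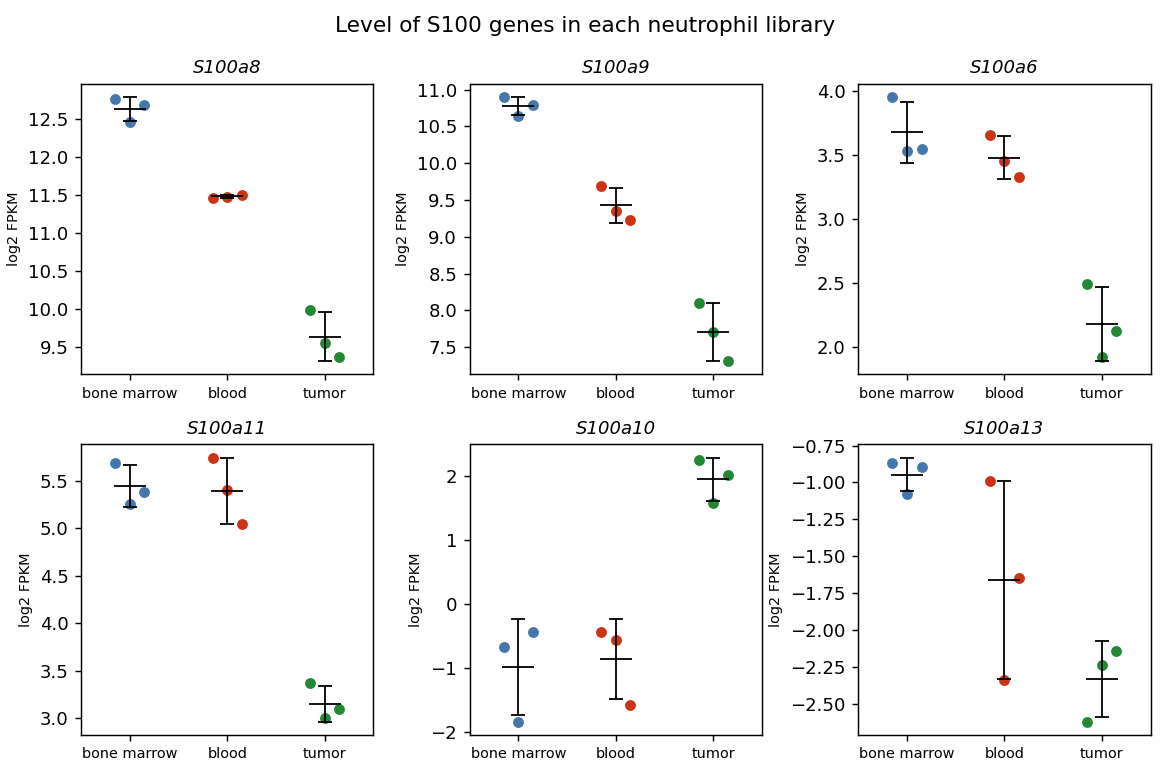
Level in log2 FPKM (y axis, a different range in each panel) of 6 S100 genes in the 3 bone marrow, 3 blood and 3 tumor libraries. Points are libraries, and the line and bars are the mean and SD (n = 3). S100a8 and S100a9 form 3 separate steps, S100a6 and S100a11 are lowest in tumor, where S100a11 lies between 3.0 and 3.37, and S100a10 is highest in tumor, between 1.59 and 2.25.

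Against bone marrow, blood S100a8 fell by 1.15 on the log2 scale (SE 0.193, 2.22-fold, limma adjusted p = 0.00222) and S100a9 by 1.35 (SE 0.215, 2.55-fold, limma adjusted p = 0.00176). These were the only members called of the 5 tested in this contrast, in which 23.6% of all genes were called lower in blood and 20.6% higher. From blood to tumor S100a8 fell by 1.84 (SE 0.193, 3.59-fold, limma adjusted p = 9.99e-05) and S100a9 by 1.72 (SE 0.215, 3.30-fold, limma adjusted p = 2.48e-04). Against bone marrow, tumor libraries were 7.98-fold lower in S100a8 (limma adjusted p = 1.13e-05) and 8.42-fold lower in S100a9 (limma adjusted p = 1.60e-05). The median change of all tested genes was -0.17 in tumor minus blood and -0.21 in tumor minus bone marrow, and became 0.28 and 0.25 when libraries were scaled by their plain totals instead of the sizes the authors had scaled. With plain totals S100a8 still fell by 1.40 and S100a9 by 1.27 from blood to tumor. Quantile normalization gave 0.17 for S100a8 in blood minus bone marrow (limma adjusted p = 0.352) and left S100a9 at -0.98. S100a8 ranked between 2 and 4 among all genes by log2 FPKM in bone marrow and blood libraries, and this method gives genes of equal rank equal values. Without the filter on low values, which raised the number of genes in the fit to 46517, the adjusted p of S100a8 in that contrast was 0.0938.

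**Figure D2:**
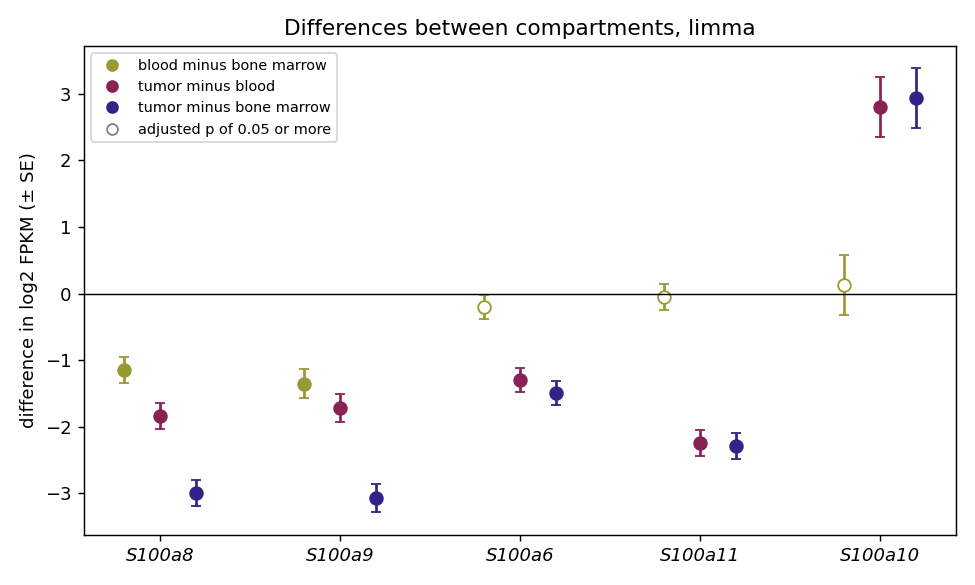
Difference in log2 FPKM (y axis, with SE from limma) for the 5 S100 genes tested, in 3 contrasts. Filled points passed an adjusted p of 0.05. S100a8 and S100a9 are below 0 in all 3 contrasts, S100a6 and S100a11 are called only where tumor is compared, and S100a10 is 2.81 and 2.94 above blood and bone marrow.

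The ratio of S100a8 to S100a9 moved little beside the change of either gene. The difference S100a8 minus S100a9 was 1.86 ± 0.045 log2 units in bone marrow, 2.06 ± 0.26 in the blood and 1.94 ± 0.11 in tumor (SD over 3 libraries). The ranges of all 3 compartments overlapped, and no difference passed an exact two-sided permutation test (p = 0.6 for tumor minus blood, 0.5 for tumor minus bone marrow, 0.4 for blood minus bone marrow), in which 3 against 3 libraries cannot go below 0.1. This difference depends on the length used for FPKM, which for most genes is the whole genomic span including introns. Per kilobase of exon the same difference was -0.10 in bone marrow, 0.10 in the blood and -0.022 in tumor.

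The 7 genes together accounted for 0.896% to 1.15% of all reads in the bone marrow libraries, 0.442% to 0.518% in the blood and 0.163% to 0.239% in tumor. S100a8 and S100a9 made up between 89.5% and 97.0% of these reads in every library. By number of reads S100a8 was gene number 13 to 14 in bone marrow, 42 to 46 in the blood and 95 to 158 in tumor. The ratio of the mean shares was 0.441 for blood to bone marrow and 0.406 for tumor to blood (exact two-sided permutation p = 0.1 for each, the smallest possible).

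The summed neutrophil markers moved in the same direction, with ratios of 0.451 for blood to bone marrow and 0.466 for tumor to blood. That list holds granule genes of developing neutrophils, such as Ltf (lactoferrin), at 10.66 log2 FPKM in bone marrow, 4.63 in the blood and 7.0 in tumor on average, as well as genes of mature cells, such as Csf3r (the G-CSF receptor), at 6.98, 9.32 and 7.06. Ly6g, the gene of the antigen used in the sort, was at 7.62, 5.08 and 3.40. For each 100 reads of the marker list there were 16.7, 12.3 and 15.9 reads of S100a8 and S100a9 in the bone marrow libraries, 15.6, 13.1 and 13.5 in blood, and 13.9, 11.7 and 10.2 in tumor. These values overlapped between all compartments, and the exact two-sided permutation p was 0.7 for blood minus bone marrow, 0.3 for tumor minus blood and 0.2 for tumor minus bone marrow. This scaling was chosen after the values were seen. The part of the neutrophil content of the libraries in the fall of S100a8 and S100a9 was not tested further.

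**Figure D3:**
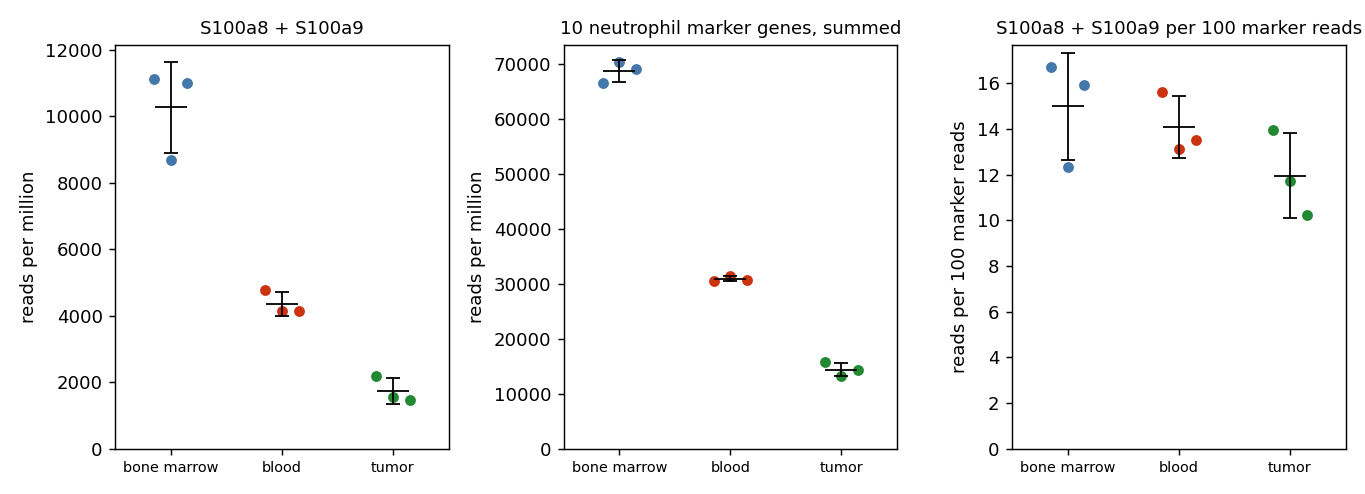
RPM (y axis) of S100a8 and S100a9 together, of the 10 neutrophil markers together, and the first as reads per 100 reads of the second, in each library. Points are libraries, and the line and bars are the mean and SD (n = 3). Both sums step down from bone marrow to tumor, while their ratio runs from 10.2 to 16.7 with overlapping compartments. This ratio holds for the sum of these markers, not for each of them.

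S100a6 and S100a11 fell in tumor and were not called between bone marrow and blood. S100a11 (chromosome 3, 93520488 to 93526287, plus strand), a partner of annexin A1, had 5.69, 5.26 and 5.38 log2 FPKM in bone marrow, 5.75, 5.40 and 5.05 in blood, and 3.37, 3.0 and 3.09 in tumor. S100a6 (90612882 to 90624181, plus strand), also known as calcyclin, had 3.95, 3.53 and 3.55 log2 FPKM in bone marrow, 3.65, 3.46 and 3.33 in blood, and 2.49, 1.92 and 2.13 in tumor. For both genes the bone marrow and blood ranges overlapped, and all tumor libraries were below all others.

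S100a11 fell by 2.24 on the log2 scale from blood to tumor (SE 0.198, 4.74-fold, limma adjusted p = 4.25e-05) and was 4.89-fold lower than in bone marrow (limma adjusted p = 4.56e-05). S100a6 fell by 1.30 (SE 0.182, 2.46-fold, limma adjusted p = 4.49e-04) and was 2.82-fold lower than in bone marrow (limma adjusted p = 2.66e-04). With S100a8 and S100a9, 4 of the 5 members tested were lower in tumor than in blood, where 34.5% of all genes were called lower, and the same 4 were lower than in bone marrow, where 32.9% were. These contrasts share the tumor libraries. In blood minus bone marrow, S100a11 differed by -0.047 (SE 0.198, limma adjusted p = 0.878) and S100a6 by -0.20 (SE 0.182, limma adjusted p = 0.414).

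The calprotectin genes were also set against the S100a6 and S100a11 pair within each library. The mean of S100a8 and S100a9 minus the mean of S100a6 and S100a11 was 7.0, 7.16 and 7.28 log2 units in the bone marrow libraries, 5.88, 5.99 and 6.18 in blood, and 6.12, 6.16 and 5.73 in tumor. Bone marrow did not overlap with blood or tumor, whereas blood and tumor overlapped. Blood lay below bone marrow by 1.13 (exact two-sided permutation p = 0.1, the smallest possible), and the tumor minus blood difference was -0.012 (exact two-sided permutation p = 0.9). This difference was chosen after the values were seen. Relative to the neutrophil markers, S100a6 and S100a11 together gave 0.40 to 0.60 reads per 100 marker reads in bone marrow, 0.84 to 1.28 in the blood and 0.73 to 0.89 in tumor (blood minus bone marrow and tumor minus bone marrow, exact two-sided permutation p = 0.1 each). The marker sum itself fell from 68637.5 RPM in bone marrow to 30933.3 in blood on average. S100a6 was at 122 and 107 RPM there, and S100a11 at 214 and 210.

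S100a10, the partner of annexin A2, was the 1 member that rose in tumor. S100a10 (chromosome 3, 93555080 to 93564643, plus strand) had -0.67, -1.83 and -0.43 log2 FPKM in bone marrow, -0.43, -0.56 and -1.56 in blood, and 2.25, 1.59 and 2.03 in tumor. These values came from 40, 15 and 47 reads in bone marrow, 28, 36 and 15 in the blood, and 283, 218 and 310 in tumor. Bone marrow and blood overlapped, and every tumor library was above all others. Only the tumor libraries were over 0 log2 FPKM, so S100a10 entered the test through the group in which it is high, and its call is no support for the family as a whole.

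S100a10 was higher in tumor than in blood by 2.81 (SE 0.452, 7.01-fold, limma adjusted p = 9.31e-04) and than in bone marrow by 2.94 (SE 0.452, 7.65-fold, limma adjusted p = 9.20e-04), contrasts in which 28.1% and 22.4% of all genes were called higher. Blood and bone marrow differed by 0.13 (SE 0.452, limma adjusted p = 0.854). In the libraries where S100a10 rose, epithelial markers rose as well. S100a10 was at 52.0, 31.3 and 47.7 RPM in tumor libraries 1, 2 and 3, where the 10 epithelial markers summed to 3686, 2787 and 5914 RPM, the 10 fibroblast markers to 1553, 1585 and 1963 RPM and the 8 acinar markers to 1098, 711 and 3078 RPM. Library 2 was the lowest in S100a10, in the epithelial sum and in the acinar sum, and library 1, the highest in S100a10, was not the highest in any of them. All 10 epithelial markers had reads in tumor, among them Krt18 and Krt8 (keratins of simple epithelia) at 7.62 and 7.31 log2 FPKM on average, and Epcam at 1.70. In bone marrow Cldn4 had no read. The part of these cells in the level of S100a10 was not tested.

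**Figure D4:**
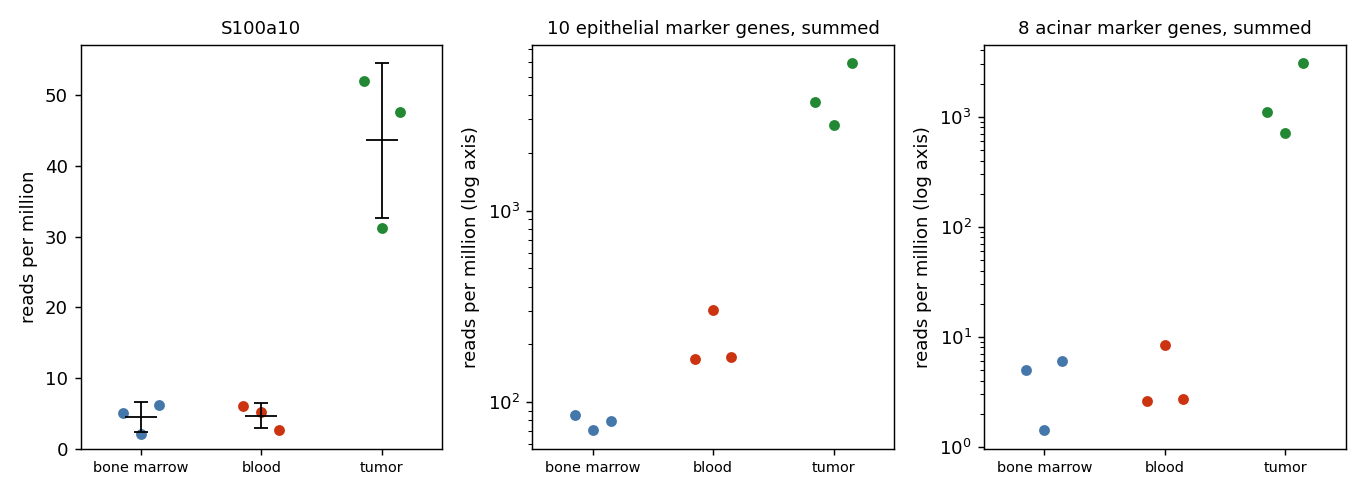
RPM (y axis, linear from 0 for S100a10 and log for the marker sums) of S100a10, of 10 epithelial markers and of 8 acinar markers in each library. Points are libraries, and the line and bars for S100a10 are the mean and SD (n = 3). S100a10 reaches 31.3 to 52.0 RPM in tumor and at most 6.24 RPM elsewhere, and both marker sums are highest in tumor.

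S100a13 was low in every library and below the filter. It (chromosome 3, 90514435 to 90524581, plus strand) had -0.87, -1.08 and -0.89 log2 FPKM in bone marrow, -0.99, -2.34 and -1.65 in blood, and -2.62, -2.24 and -2.14 in tumor, from 10 to 37 reads. All bone marrow libraries were above all tumor libraries, and blood overlapped with tumor. With a filter of at least 5 reads in any library in place of the main one, which kept 17714 genes, S100a13 fell by 1.39 in tumor against bone marrow (SE 0.363, limma adjusted p = 0.0144), where 18.4% of the genes so tested were called lower. Under the same filter it did not pass in tumor minus blood (-0.67, limma adjusted p = 0.151) or in blood minus bone marrow (-0.71, limma adjusted p = 0.185).

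S100a4 had almost no reads in any compartment. It had 7, 0 and 0 reads in bone marrow, 0, 0 and 1 in the blood and 3, 0 and 0 in tumor. Of its 584 exon bases in GENCODE M21, 302 (51.7%) are shared with an overlapping gene, listed in the table as RP23-326D6.5 with 0 reads in all libraries. The other 282 are not shared. The other 6 members share no exon base with another gene. Counting programs can leave out reads that fit more than 1 gene, and whether this was done here is not given in the sources used. The reads were counted with GENCODE M7, for which the overlap was not examined. Whether the few reads of S100a4 reflect its expression was not tested, so its values are not compared between compartments.

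Levels of different genes can be set side by side per kilobase of exon (exon RPKM, from the recovered reads and the authors' scaled library sizes). In bone marrow S100a9 (10416 ± 892) and S100a8 (9735 ± 1042) led with overlapping ranges, followed by S100a11 (498 ± 79.3), S100a6 (107 ± 18.5), S100a13 (7.33 ± 0.574) and S100a10 (4.32 ± 1.90; SD, n = 3 each). Each step after the leading pair was larger than the spread, since the ranges of neighbours did not overlap. In blood S100a8 (4364 ± 69.9) and S100a9 (4110 ± 707) again overlapped, S100a11 (488 ± 117) and S100a6 (92.6 ± 10.7) followed in separate steps, and S100a13 (4.77 ± 2.18) and S100a10 (4.60 ± 1.72) overlapped. In tumor S100a10 (31.2 ± 6.97) moved up beside S100a6 (38.0 ± 7.72) with overlapping ranges, below S100a9 (1264 ± 340), S100a8 (1236 ± 283) and S100a11 (102 ± 13.7), and above S100a13 (2.79 ± 0.480).

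The annexins, which bind several S100 proteins, went in both directions. Of 12 annexin genes listed, 9 were tested. Against blood, 4 were higher in tumor (Anxa3, Anxa4, Anxa5 and Anxa8) and 4 were lower (Anxa1, Anxa2, Anxa6 and Anxa11), with a median change of 0.18 beside -0.17 for all genes. Against bone marrow, 3 were higher in tumor (Anxa4, Anxa5 and Anxa8) and 5 lower (Anxa1, Anxa2, Anxa3, Anxa7 and Anxa11), with a median of -0.73 beside -0.21. With plain library totals Anxa3 and Anxa7 were no longer called there (limma adjusted p = 0.161 and 0.152). In blood minus bone marrow 2 were higher and 4 lower, and 1 of the 2, Anxa2, lost its call under quantile normalization (0.19, limma adjusted p = 0.139). Anxa4 and Anxa8 were over 0 log2 FPKM in tumor libraries alone and so entered the test through the group in which they are high. Over all genes, 28.1% were higher and 34.5% lower in tumor than in blood, and 22.4% and 32.9% against bone marrow. In blood minus bone marrow 20.6% were higher and 23.6% lower.

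Anxa2, which forms a heterotetramer with S100a10, moved against it. Anxa2 had 6.47, 6.51 and 6.31 log2 FPKM in bone marrow, 6.78, 7.01 and 6.86 in blood, and 5.64, 5.54 and 5.65 in tumor, without overlap between compartments. It fell by 1.27 in tumor against blood (SE 0.0911, limma adjusted p = 1.59e-05) and by 0.82 against bone marrow (SE 0.0911, limma adjusted p = 1.68e-04). S100a10 minus Anxa2 was -7.41 ± 0.84 log2 units in bone marrow, -7.74 ± 0.63 in the blood and -3.65 ± 0.28 in tumor (SD over 3 libraries). The tumor libraries were above all others, by 4.08 against blood and 3.76 against bone marrow (exact two-sided permutation p = 0.1 for each, the smallest possible). S100a10 passed the filter through tumor alone, so this difference is given as a description. The part of epithelial cells in it was not tested. Per exon kilobase Anxa2 was still above S100a10 in tumor, at 501 ± 20.9 against 31.2 ± 6.97 exon RPKM.

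Anxa1, the partner of S100a11 and an anti-inflammatory protein abundant in neutrophils, had 8.92, 9.03 and 8.90 log2 FPKM in bone marrow, 7.5, 7.96 and 7.88 in blood, and 6.06, 5.64 and 5.95 in tumor. It fell at each step, by 1.17 in blood against bone marrow (SE 0.153, limma adjusted p = 6.80e-04) and by 1.89 in tumor against blood (SE 0.153, limma adjusted p = 2.72e-05), whereas S100a11 was called only in tumor. Anxa11, a partner of S100a6, had 2.21, 2.24 and 1.96 log2 FPKM in bone marrow, 1.69, 1.95 and 1.87 in blood, and 0.12, 0.05 and 0.14 in tumor, and fell by 1.73 in tumor against blood (SE 0.128, limma adjusted p = 1.83e-05). Its blood minus bone marrow difference of -0.30 was not called (limma adjusted p = 0.0921), nor was that of S100a6. Anxa8 had 1465, 1127 and 2369 reads in the tumor libraries and at most 7 reads in any other library.

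**Figure D5:**
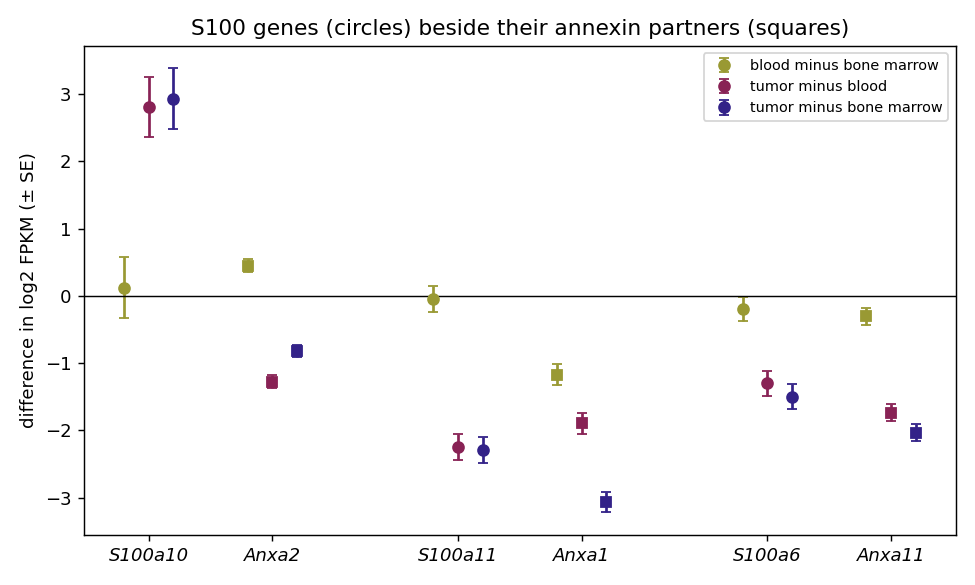
Difference in log2 FPKM (y axis, with SE from limma) of S100 genes (circles) and the annexins they bind (squares) in 3 contrasts. S100a10 is 2.81 above 0 in tumor minus blood where Anxa2 is 1.27 below, while S100a11 with Anxa1 and S100a6 with Anxa11 are all below 0 where tumor is compared.

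Receptors of extracellular S100 proteins were mixed. Of 10 genes listed, 8 were tested, and 3 were higher (Cd14, Bsg and Alcam) and 4 lower (Ager, Mcam, Nptn and Cd33) in tumor than in blood, with a median of -0.44. Against bone marrow, 4 were higher in tumor (Tlr4, Cd14, Bsg and Alcam) and 3 lower (Ager, Mcam and Cd33), with a median of 0.57. In blood, 6 were higher than in bone marrow and 0 lower, with a median of 1.04 beside -0.042 for all genes. Of all genes, 28.1% were higher and 34.5% lower in tumor than in blood, and 22.4% and 32.9% against bone marrow. For blood against bone marrow these shares were 20.6% and 23.6%. Alcam lost its call in tumor minus blood under quantile normalization and median centring (limma adjusted p = 0.340 and 0.0814), and Cd33 in tumor minus bone marrow with plain totals (limma adjusted p = 0.0874). Alcam passed the filter through tumor alone, so its higher calls there are no support for the list.

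Cd14, the co-receptor of Toll-like receptor 4, had 5.37, 5.77 and 5.60 log2 FPKM in bone marrow, 8.20, 8.75 and 8.44 in blood, and 10.79, 11.31 and 10.73 in tumor. It thus rose at the same steps at which S100a8 and S100a9 fell, by 2.89 into blood (SE 0.207, limma adjusted p = 4.47e-05) and by 2.48 into tumor (SE 0.207, limma adjusted p = 3.24e-05). Bsg, which encodes basigin, a receptor named for S100a9, rose by 2.23 in tumor against blood (SE 0.131, limma adjusted p = 7.14e-06). Tlr4 was higher in blood than in bone marrow by 1.26 (SE 0.233, limma adjusted p = 0.00349) and differed by 0.093 between tumor and blood (limma adjusted p = 0.748). Ager, which encodes RAGE, was low, with 8 to 59 reads per library, and fell by 2.65 in tumor against blood (SE 0.270, limma adjusted p = 8.84e-05).

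Transcription factors known for S100a8 and S100a9 in myeloid cells were tested for 9 of 10 genes. In tumor 2 were higher than in blood (Atf3 and Klf4) and 4 lower (Spi1, Cebpa, Cebpd and Stat3), and against bone marrow 3 were higher (Hif1a, Atf3 and Klf4) and 5 lower (Spi1, Cebpa, Cebpd, Cebpe and Stat3). The medians were 0.43 and -1.12. Beside these counts, 28.1% of all genes were higher and 34.5% lower in tumor than in blood, and 22.4% and 32.9% against bone marrow. Klf4 passed the filter through tumor alone, so its higher calls there are no support for the list. With plain totals Spi1 and Cebpa were not called in tumor minus blood (limma adjusted p = 0.0811 and 0.0721), Spi1 was also not called under quantile normalization (limma adjusted p = 0.0613), and Stat3 was not called in tumor minus bone marrow with plain totals (limma adjusted p = 0.251). Of the 9, 1 was lower in blood than in bone marrow, Cebpe, the C/EBP factor of granule formation, which fell by 5.97 (SE 0.824, limma adjusted p = 8.99e-04), and 3 were higher (Stat3, Hif1a and Atf3), with a median of -0.35. In that contrast 23.6% of all genes were lower in blood and 20.6% higher. Cebpe had 6.06, 5.84 and 5.61 log2 FPKM in bone marrow, -1.74, -0.49 and 1.83 in blood, and 0.85, 1.66 and 2.37 in tumor. Cebpb was not called in any contrast and ranged from -1.53 to 7.19 log2 FPKM in tumor.

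Other calcium genes of leukocytes, outside the family, were called lower more often than higher, as were all tested genes, although with plain totals 2923 of all genes were higher and 1898 lower in tumor than in blood, and 2601 higher and 1634 lower than in bone marrow. Of 19 listed, 17 were tested, and 12 were lower and 2 higher in tumor than in blood, where 34.5% of all genes were lower and 28.1% higher, with a median of -0.63. Against bone marrow 14 were lower and 1, Capn2, was higher, beside 32.9% and 22.4% of all genes, with a median of -1.15. In blood 8 were lower and 2 higher than in bone marrow, beside 23.6% and 20.6%, with a median of -0.41. Capn2 passed the filter through tumor alone, and Stim1, among the lower calls against bone marrow, through bone marrow alone. With plain totals 3 of the calls in tumor minus blood were lost without a change of sign and 2, of Efhd2 and Pdcd6, turned to 0.10 and 0.086 without a call, and 4 were lost in tumor minus bone marrow. Lcp1, an actin bundler with EF-hands, fell by 2.33 in tumor against blood (SE 0.0966, limma adjusted p = 2.65e-06), Sri (sorcin) by 1.60 (SE 0.160, limma adjusted p = 8.02e-05) and Gca (grancalcin) by 0.62 (SE 0.158, limma adjusted p = 0.00956). Gca lost this call with plain totals (limma adjusted p = 0.457).

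Of the other S100 genes and pseudogenes, 11 were listed and 3 were tested, S100a1, S100a14 and S100a16. All 3 were higher in tumor than in blood, where 28.1% of all genes were. Against bone marrow 2 were higher in tumor, beside 22.4% of all genes. S100a14 and S100a16, which are best known from epithelia, passed the filter through tumor alone, so their calls there are no support for the list. S100a14 had 35, 43 and 39 reads in tumor, 0, 3 and 0 in blood and 0, 0 and 1 in bone marrow, a ratio of 35.0 to blood in RPM (95% exact interval 11.7 to 172, counting error only). S100a16 had 266, 269 and 353 reads in tumor, 0, 15 and 0 in blood and none in bone marrow, and was at least 353-fold higher in tumor than a floor of 3 reads over the bone marrow libraries. S100a1 had 82, 38 and 65 reads in tumor, 5, 7 and 2 in blood and 24, 14 and 24 in bone marrow. It rose by 3.16 in tumor against blood (SE 0.501, limma adjusted p = 8.67e-04), was not called against bone marrow (1.35, limma adjusted p = 0.0504) and fell by 1.81 in blood against bone marrow (limma adjusted p = 0.0209, and 0.0592 under quantile normalization). The epithelial markers given beside S100a10 moved with these genes too, and their part was not tested.

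All 7 members lie on chromosome 3, between 90514435 and 93564643. Another 107 genes without an S100a symbol lie in that stretch, 3 of which were tested. Further genes with an S100a symbol were left out of these counts. Sprr1a and Ivl, which encode proteins of the cornified envelope of squamous epithelia, had 145 to 337 and 32 to 55 reads in the tumor libraries and 1 read each in all others. Both passed the filter through tumor alone, so their levels are given as a description. Gm4202 was not called in any contrast.

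For each member, the genes outside the family with the most similar profile over the 9 libraries were found by Pearson's r of log2 FPKM among the genes tested, as a description, since the points are 3 compartments of 3 libraries. Nearest to S100a8 were Wfdc21 (r = 0.996), Arhgdib (0.995) and Glrx (0.994), and nearest to S100a9 were Wfdc21 (0.997), Plbd1 (0.993) and Glrx (0.991). Between S100a8 and S100a9 r was 0.992. Wfdc21, which encodes a small secreted protein, went from 4.44 log2 FPKM in bone marrow to 3.01 in blood and 0.81 in tumor on average. Nearest to S100a6 were Ifitm3 (0.986), Tmsb4x (0.984) and Gpsm3 (0.983), nearest to S100a11 were Yipf3 (0.993), Gnai2 (0.993) and Cd52 (0.991), and r between S100a6 and S100a11 was 0.985.

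The profile of S100a10 was of another kind. Its nearest genes were Anxa8 (r = 0.991), Msln (0.987), which encodes mesothelin, and Ctgf (0.987), a growth factor of connective tissue. Msln and Ctgf were at -4.98 and -4.00 log2 FPKM on average in bone marrow, -5.45 and -4.63 in the blood and 5.0 and 6.0 in tumor. Against the other members tested, r of S100a10 was between -0.87 and -0.82. S100a13, with few reads, was nearest to Slc8b1 (0.936), Hmgn2-ps1 (0.930) and Gm24031 (0.923).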

How the data were processed

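Neutrophils from bone marrow, blood and tumor of OT mice gave 9 libraries, 3 per compartment, each from 5 pooled mice. Per the study's methods and the submitters' processing notes, SMARTSeq v2 cDNA was sequenced, mapped to GRCm38 with STAR 2.5.2b and counted per GENCODE M7 gene with featureCounts 1.5.0. The authors then calculated the deposited log2 FPKM values (edgeR 3.8.6 is named), with a small constant before the log, scaled library sizes (factors of 0.796 to 0.881 for bone marrow libraries, 0.818 to 0.863 for blood and 1.08 to 1.22 for tumor) and, for 85.0% of the identifiers found in GENCODE M21, the genomic span as gene length. Tumor values are therefore lower than plain totals would give. The strand setting of the counting is not given in the sources used here.

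Whole reads were recovered from the steps between values (tolerance 0.02) for all 46517 genes, tested on simulated data. They give the counting error only, since PCR copies were not removed here. Genes with log2 FPKM over 0 in 3 or more libraries were fitted with limma 3.58.1 (R 4.3.3, with the variance trend over intensity), all 9 libraries together and 1 coefficient per compartment. A call is a Benjamini-Hochberg adjusted p under 0.05. The fit was also tested on simulated data. Single values per library were compared with exact two-sided permutation tests. The members, the gene lists (other S100 genes, annexins, receptors, transcription factors, calcium genes, neighbours on the chromosome, cell markers) and the motifs were chosen with earlier results of these data known. The genes named are the members, list genes and, for each member, the 3 tested genes outside the family with the highest Pearson's r to it. Protein sequences were not used here. The summed levels of the remaining marker lists were, in bone marrow, blood and tumor on average, 1462, 1657 and 833 RPM for macrophages and monocytes, 45.3, 109 and 12.0 for lymphocytes, 17.1, 103 and 112 for endothelium, 12.4, 577 and 9.89 for platelets, and 41.5, 361 and 60.8 for red cells.

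The alternatives tried were no filter, a stricter filter (log2 FPKM over 2), a filter of at least 5 reads in any library, pseudocounts of 1 and 0.1, quantile normalization, median centring, plain library totals, limma-voom on the recovered reads, no trend, robust estimation, the replicate number as a block, only the 2 compartments compared, exon length for differences between genes, and each library left out in turn. Reads per 100 marker reads and the difference between the S100a8 and S100a9 pair and the S100a6 and S100a11 pair were added after seeing the data.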

Additional observations from a re-analysis of the deposited data

How the results depend on the processing

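Over all alternatives and the 5 members tested, 319 of the values kept direction and call, 7 changed direction and 1 kept its direction but lost its call. The calls of S100a6, S100a9, S100a10 and S100a11 held under every alternative in which they were tested (S100a10 was not tested under the stricter filter), and so did those of S100a8 where tumor is compared. In blood minus bone marrow, S100a8 was -1.15 without a filter (limma adjusted p = 0.0938) and 0.17 under quantile normalization, so the members called there were 1 in place of 2 under each. Values near 0 in that contrast changed sign, for S100a11 to 0.012 under median centring and to between -0.22 and 0.13 over the alternatives, including 0.08 without bone marrow replicate 1 and 0.13 without blood replicate 3, and for S100a10 to -0.30 without bone marrow replicate 2, -0.09 without blood replicate 1 and -0.019 without blood replicate 2 (up to 0.48 without blood replicate 3). With exon length S100a8 minus S100a9 was -0.10 in bone marrow, 0.10 in the blood and -0.022 in tumor. S100a10 minus Anxa2 was -5.83, -6.24 and -3.35 in bone marrow, blood and tumor with a pseudocount of 1 and -4.03 in tumor with exon length, and its blood minus bone marrow difference lay between -0.79 and 0.019 as libraries were left out. The calls in blood minus bone marrow for other S100 genes ranged from 0 to 1 as libraries were left out, and were 0 without a filter, under the stricter filter, with a pseudocount of 1, under quantile normalization and in limma-voom. Other S100 calls were 1 under the stricter filter in each tumor contrast, 5 under the filter on reads and 5 in limma-voom in tumor minus blood, and 4 in limma-voom in tumor minus bone marrow. Receptor calls under the stricter filter were 3 in tumor minus blood, 4 in tumor minus bone marrow and 3 in blood minus bone marrow, and transcription factor calls in tumor minus blood were 3 without a filter.

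Over all genes, tumor minus blood gave 4611 higher without a filter, 918 higher and 1644 lower under the stricter filter, 5740 higher under the filter on reads and 5871 higher in limma-voom, beside 2194 higher and 2686 lower as reported. Tumor minus bone marrow gave 3396 higher without a filter, 849 higher and 1529 lower under the stricter filter, 4469 higher under the filter on reads, 5192 higher in limma-voom and 1634 lower with plain totals, beside 1745 and 2566. Blood minus bone marrow gave 1036 higher and 888 lower under the stricter filter, 2890 lower under the filter on reads, and 2449 higher and 2912 lower in limma-voom, beside 1605 and 1841. With plain totals the split was 2923 higher and 1898 lower against blood and 2601 higher against bone marrow. The stricter filter tests fewer genes and the other filters more. The cause of the other changes was not tested.

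Libraries with the same replicate number did not deviate together from their compartment means (r of -0.07 to 0.11), so they were not treated as pairs. The paper describes the bone marrow and blood neutrophils compared as taken from the same mouse as those of the tumor. Whether an equal replicate number marks the same pool of mice is not given in the sources used here. Replicate 1 was the highest library of each compartment for S100a6, S100a9 and S100a11. With the replicate number as a block the SE was 0.0987 for S100a6 and 0.116 for S100a11, beside 0.182 and 0.198 without it, and 5, 5 and 2 members were called in tumor minus blood, tumor minus bone marrow and blood minus bone marrow, as without it, and 2167 genes were higher and 2684 lower in tumor than in blood. With the authors' scaled library sizes the share of reads of the 7 genes had ratios of 0.299 for tumor to blood and 0.132 for tumor to bone marrow, beside 0.406 and 0.179. A pseudocount and exon length were not run for shares of reads, to which they do not apply. With 3 libraries per compartment a permutation test cannot pass 0.05, and below about 50 reads, as for S100a10 outside tumor and S100a13, counting error limits the values.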
